A study of Mus musculus with 13 samples.

Results

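The genes described here were those of the thrombospondins Thbs1, Thbs2, Thbs3 and Thbs4, the tenascins Tnc and Tnr, periostin (Postn), Sparc and Sparcl1, together with 8030451A03Rik, a transcript annotated on the strand opposite Tnc. They are 10 of the 55416 genes in the deposited table. The symbols were chosen by gene family with their read counts and fold changes in all 3 comparisons of these libraries already known, so the values and adjusted p below describe them and support nothing independently; no threshold on a value was set. The libraries, made from RNA with poly(A) tails, come from 5 PDGFB tumors, 5 RAS tumors and 3 samples of normal brain. Both tumor groups were glioblastomas induced by a lentivirus in the motor cortex. The hosts were CNP-Cre mice, which carry Cre at Cnp, a gene of the oligodendrocyte lineage. PDGFB tumors (genotype PDGFB-shP53) had received a lentivirus with PDGFB, a ligand of the PDGF receptors, and a hairpin RNA against p53. The RAS tumors (genotype HrasV12-shp53) had received HRasV12, an oncogenic form of HRas, with the same hairpin. Tumor tissue carrying GFP was taken from 5 mice per group at the clinical endpoint, and normal brain tissue came from mice labelled WT, with no Cre, virus or brain region named for it; the labels also mention normal tissue trimmed from tumors without saying whether these 3 libraries are that tissue. Ages were not given in the sources used here. A difference between tumor and normal brain can therefore also be one of brain region or of the Cre allele, and the p-values measure the spread between these libraries.

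Thrombospondins, tenascins, periostin and SPARC are matricellular proteins: they are secreted into the extracellular matrix, bind collagens, growth factors and cell-surface receptors there, and change how cells attach and signal rather than building the scaffold itself. Thrombospondins 1 and 2 restrain blood vessel growth, and astrocytes use thrombospondins and the SPARC-like protein hevin, encoded by Sparcl1, to induce synapses during brain development. Tenascin-R belongs to the oligodendrocyte lineage and the perineuronal nets of the healthy brain, while tenascin-C is abundant in developing brain and in glioma.

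Each library held 13952738 to 15607754 reads, but only 529162 to 643055 were counted for a gene, because of the uniquely mapped reads 95.2% to 95.7% were assigned to none. Genes whose exons overlap an exon on the other strand made up 17.1% of the annotated genes and held 84.8% of the counted reads. A gene name below therefore means the reads deposited under it, and where another gene lies opposite, both are given. Which strand the counted reads come from is not known for any gene, so for Thbs2, Postn, Sparc and Sparcl1, with no gene opposite, a level or fold could also be one of antisense or stray reads, and this was not tested. Trp53, the target of the hairpin, had at most 5 reads in any library, so a knockdown could not be judged. RAS tumor 2 stood apart within its group in markers of normal tissue: its summed astrocyte markers reached 753 CPM (reads scaled to a common library total) and those of the other 4 RAS tumors 165 to 249.

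The place of Tnc and 8030451A03Rik is shown first because the most abundant reads of the family stand there. Tnc (ENSMUSG00000028364) lies on the minus strand of chromosome 4 at 63959785 to 64047015 (GRCm38), and 8030451A03Rik (ENSMUSG00000073821) on the plus strand at 63979854 to 64149924. Of 4083 exonic bases of 8030451A03Rik, 176 lie opposite exons of Tnc, all within 1 coding exon of Tnc, in 2 stretches of 72 and 104 bases. The exon is printed as Tnc is read, with the bases shared with 8030451A03Rik in capitals and the 97 bases opposite an intron of 8030451A03Rik in lower case. Gm29233, a long noncoding transcript, lies the same way opposite Thbs1 and shares 208 of its 281 exonic bases with it. The coding exon of Thbs1 that it covers in full is shown beside it, as Thbs1 is read.
Tnc exon, chr4:63982651-63982923, minus strand: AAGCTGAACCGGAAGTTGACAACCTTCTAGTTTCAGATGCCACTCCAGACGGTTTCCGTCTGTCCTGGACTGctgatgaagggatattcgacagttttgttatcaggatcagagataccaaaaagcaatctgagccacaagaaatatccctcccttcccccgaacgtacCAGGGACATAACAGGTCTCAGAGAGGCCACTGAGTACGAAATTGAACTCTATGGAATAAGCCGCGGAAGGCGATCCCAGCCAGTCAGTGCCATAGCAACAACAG
Thbs1 exon, chr2:118123916-118124013, plus strand: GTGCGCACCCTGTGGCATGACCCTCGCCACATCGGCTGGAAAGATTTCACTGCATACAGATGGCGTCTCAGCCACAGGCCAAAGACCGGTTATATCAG
RefSeq (GRCm38.p6) starts 8030451A03Rik at another place than GENCODE, at 63984731, and all 250 bases before that start are coding sequence of Tnc. Neither the kit label nor the processing notes say whether the strand of the RNA was recorded or used in the count, so reads of a gene and of the entry opposite it cannot be told apart here.

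**Figure D1:**
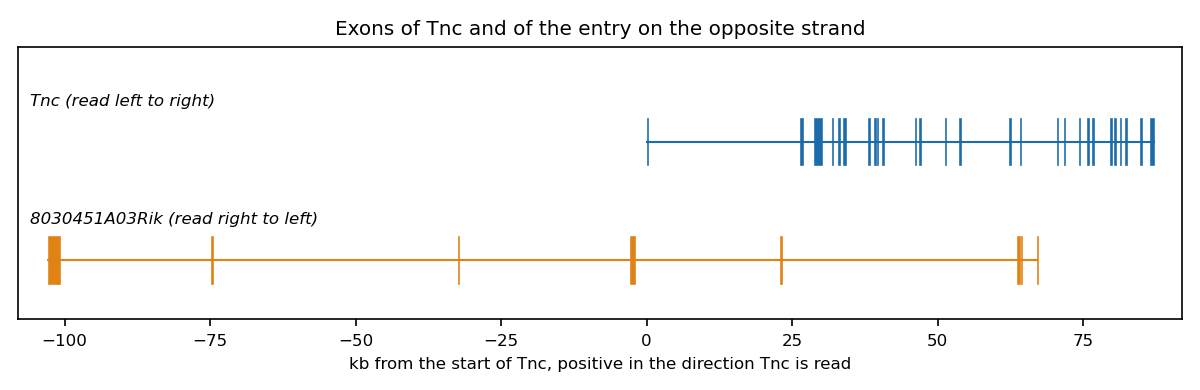
Exons of Tnc (blue, 27 exons) and of 8030451A03Rik (orange, 8 exons) as boxes along the genome, in kb from the start of Tnc and positive in the direction in which Tnc is read. The opposite entry meets exons of Tnc at 1 place, toward the right end, and most of its exons lie outside those of Tnc.

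Of the 10 members, 9 passed the low-count filter, and Thbs4 did not. Calls rest on edgeR's quasi-likelihood test with Benjamini-Hochberg adjustment over all 7722 genes that passed, at a threshold of 0.05. In PDGFB tumors against normal brain, 3 of the 9 were called higher and 1 lower, where 20.2% of all tested genes were called higher and 25.1% lower. In RAS tumors against normal brain, 6 were called higher and 1 lower, against 26.9% and 29.3% of all tested genes. Between the tumors, 2 were called higher and 6 lower in PDGFB than in RAS tumors, against 14.6% and 17.4%. The median log2 fold changes of the 9 were 1.15, 4.39 and −2.07 in these comparisons, and 0.00, 0.02 and 0.03 over all tested genes. Thbs1, Thbs2 and Postn passed the filter through RAS tumors alone, and Thbs3 through PDGFB tumors alone. Tnc and 8030451A03Rik passed it through tumors alone, and Thbs2 and Postn had no read in normal brain. Calls of these members, also between tumors, thus rest on genes tested because of the group where they are high. The counts describe the members and support nothing beyond them. Values of PDGFB tumors lay above all normal brains for 4 of the 9 and below all for 1, against 28.2% and 23.3% of all tested genes. Those of RAS tumors did so for 6 and 1, against 25.8% and 26.4%, and PDGFB tumors stood above all RAS tumors for 2 and below all for 5, against 11.4% and 8.88%. The first 2 comparisons share the normal brains. In bulk tissue, fewer cells of a type and less RNA per cell cannot be told apart. Scaling by library totals moved the median gene by 0.23 in PDGFB tumors against normal brain and 0.14 between tumors on the log2 scale, and turned the direction of none of the 9. Without RAS tumor 2 the calls were 5, 7 and 9 in place of 4, 7 and 8.

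**Figure D2:**
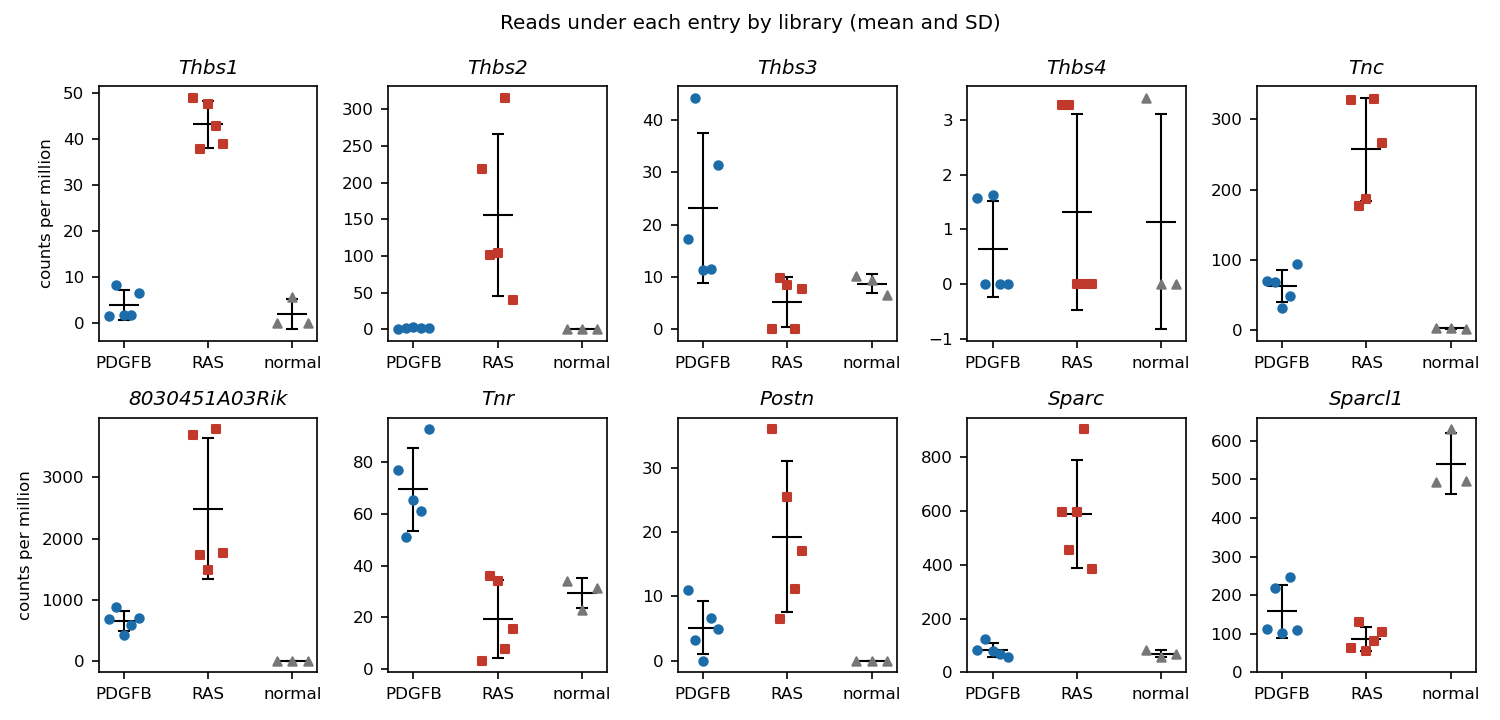
Reads under each of the 10 entries as CPM, 1 point per library, with the mean and SD of each group (5 PDGFB tumors, 5 RAS tumors, 3 normal brains); each panel has its own linear axis. Thbs1, Thbs2, Tnc, 8030451A03Rik and Sparc stand highest in all 5 RAS tumors, Tnr in all 5 PDGFB tumors and Sparcl1 in all 3 normal brains.

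Among the thrombospondins, Thbs1 and Thbs2 were high in RAS tumors. Thbs2 (ENSMUSG00000023885, chromosome 17, 14665500 to 14694235, no gene opposite) encodes an inhibitor of angiogenesis that also controls the clearance of matrix proteases. It had 0, 1, 2, 1 and 1 reads in PDGFB tumors 1 to 5, 134, 62, 61, 199 and 26 reads in RAS tumors 1 to 5 and no read in the 3 normal brains. Every RAS tumor stood above every other library, and the RAS tumors differed among themselves by several fold. On the CPM scale the PDGFB tumors averaged 1.64 ± 1.15 and the RAS tumors 156 ± 110.0 (SD, n = 5 each). Thbs2 was at least 89.8-fold higher in RAS tumors than in normal brain (adjusted p = 8.23e-06), a bound set by 3 reads over the normal group. Between tumors the log2 fold change was −6.54 ± 0.66 SE, PDGFB over RAS (adjusted p = 4.24e-06). PDGFB tumors, with 5 reads in all, were not called against normal brain (adjusted p = 0.272).

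Thbs1 (ENSMUSG00000040152, chromosome 2, 118111876 to 118127133) encodes the thrombospondin that platelets release and that activates latent TGF-beta. It had 1, 5, 1, 1 and 4 reads in PDGFB tumors, 30, 23, 28, 27 and 25 in RAS tumors and 0, 3 and 0 in normal brains 1 to 3. The RAS tumors lay close together, at 43.2 ± 5.06 CPM (SD, n = 5), and clear of both other groups, whose ranges overlapped. Against normal brain the ratio of counts was 24.8 in RAS tumors, with a 95% counting interval of 8.30 to 122 (adjusted p = 3.94e-05), and between tumors the log2 fold change was −3.54 ± 0.47 SE, PDGFB over RAS (adjusted p = 3.02e-05). PDGFB tumors were not called against normal brain (log2 fold change 0.85, interval −0.93 to 2.63, adjusted p = 0.466). Normal brain 2 held all 3 reads of its group. Without it PDGFB tumors were called (fitted log2 fold change 4.27, adjusted p = 0.0312) and the value of RAS tumors was 7.76 (adjusted p = 3.69e-05), both against a group with no read, where the fit depends on the prior count.

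Gm29233, opposite Thbs1, held more reads and had the same order of groups. It had 24 to 47 reads in PDGFB tumors, 179 to 285 in RAS tumors and 3 to 7 in normal brains, and no 2 groups overlapped. PDGFB tumors were 5.42-fold above normal brain (adjusted p = 4.58e-05, log2 fold change 2.44 ± 0.36 SE) and RAS tumors 40.8-fold above it (adjusted p = 1.11e-08, 5.35 ± 0.35 SE). The reads of all libraries of a group under Gm29233 were 13.5 times those under Thbs1 in PDGFB tumors, 8.37 times in RAS tumors and 4.67 times in normal brain. Per kb of exon the difference in level was wider, with 7.12 CPM per kb for Thbs1 and 1290 CPM per kb for Gm29233 in RAS tumors.

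Thbs3 (ENSMUSG00000028047, chromosome 3, 89215180 to 89226837), from the branch of the family that assembles into pentamers, went the other way between the tumors. PDGFB tumors had 11, 27, 7, 7 and 19 reads, RAS tumors 0, 6, 5, 0 and 5 and normal brains 6, 5 and 4. On the CPM scale every PDGFB tumor stood above every RAS tumor and every normal brain, and RAS tumors overlapped normal brain. Between tumors the log2 fold change was 1.97 ± 0.61 SE, PDGFB over RAS (adjusted p = 0.0196). Thbs3 did not pass the low-count filter, and had no test, in the 10 tumors alone or without PDGFB tumor 1, 2 or 5. Neither tumor group was called against normal brain (log2 fold change 1.15, adjusted p = 0.177 for PDGFB tumors and −0.82, adjusted p = 0.393 for RAS tumors). Fitted alone with normal brain, PDGFB tumors were called (adjusted p = 0.0366, 0.0366 to 0.320 over the alternatives). Mtx1, a gene of mitochondrial protein import that shares 318 exonic bases with Thbs3 on the other strand, had 70 to 122 reads in PDGFB tumors, 99 to 162 in RAS tumors and 88 to 111 in normal brains. Its log2 fold change between tumors was −0.71 ± 0.20 SE (adjusted p = 0.0131), opposite in sign to that of Thbs3. Thbs4 (chromosome 13, 92751590 to 92794818), a thrombospondin of astrocytes and muscle, had 2 reads over the PDGFB tumors, 4 over the RAS tumors and 2 over the normal brains. No difference was detectable at this depth.

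**Figure D3:**
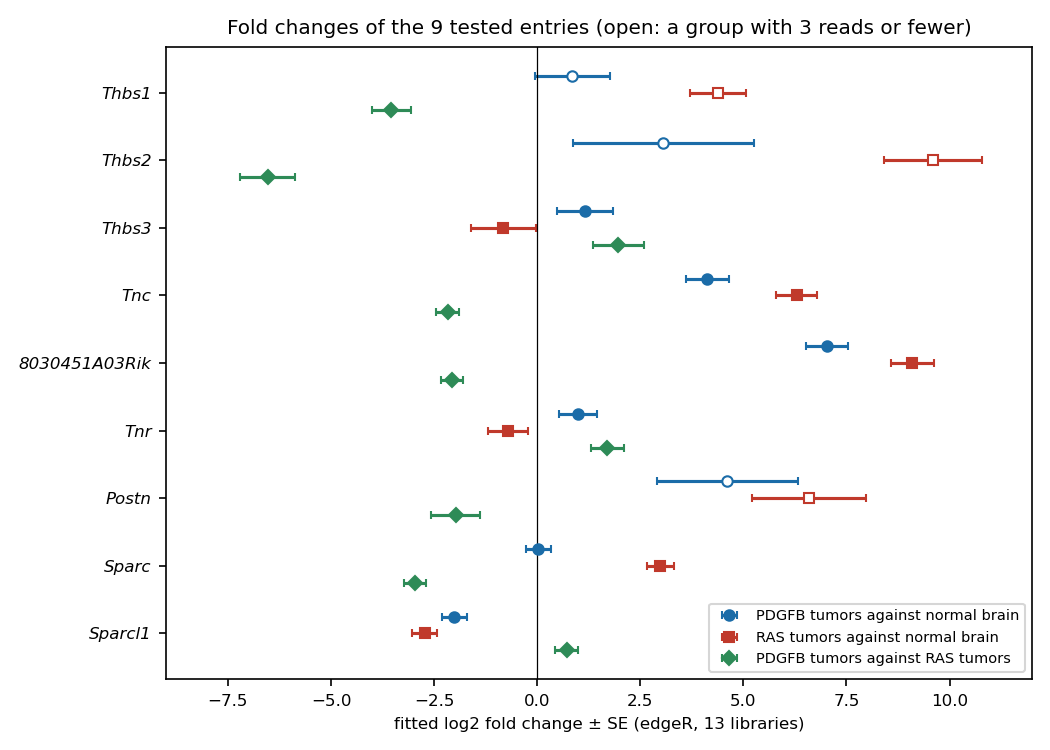
Fitted log2 fold change ± SE from edgeR over 13 libraries for the 9 tested entries, with 1 marker per comparison; open markers have a group with 3 reads or fewer, where the fitted value depends on the prior count. Tnc and 8030451A03Rik lie right of 0 in both tumor groups, Sparcl1 left of 0 in both, and Thbs3 and Tnr are the members above 0 with an adjusted p under 0.05 between tumors.

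The tenascin genes separated the tumors. Tnc, whose product is a large hexameric glycoprotein of the glioma matrix, had 45, 42, 20, 30 and 57 reads in PDGFB tumors, 200, 107, 110, 207 and 171 in RAS tumors and 2, 2 and 1 in normal brains. The 3 groups did not overlap. Mean levels were 63.2 ± 23.3 CPM for PDGFB tumors, 257 ± 73.8 CPM for RAS tumors and 2.95 ± 1.14 CPM for normal brain (SD, n = 5, 5 and 3). Against normal brain, Tnc was 17.3-fold higher in PDGFB tumors (adjusted p = 1.22e-05, log2 fold change 4.12 ± 0.52 SE) and 78.1-fold higher in RAS tumors (adjusted p = 7.59e-08, 6.29 ± 0.50 SE). PDGFB tumors were 4.50-fold lower than RAS tumors (−2.17 ± 0.28 SE, adjusted p = 2.03e-05).

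8030451A03Rik, the entry opposite Tnc, had 434, 541, 262, 354 and 424 reads in PDGFB tumors, 2252, 1055, 869, 2386 and 1138 in RAS tumors and 3, 2 and 2 in normal brains. RAS tumors 1 and 4 were highest under both names, and PDGFB tumor 3 was the lowest tumor under both. Its log2 fold changes were 7.03 ± 0.50 SE in PDGFB tumors and 9.10 ± 0.52 SE in RAS tumors against normal brain (adjusted p = 4.16e-08 and 2.47e-09). Between tumors it was −2.07 ± 0.26 SE (adjusted p = 1.98e-05), close in size to that of Tnc. Summed over a group, its reads were 10.4 times those of Tnc in PDGFB tumors, 9.69 times in RAS tumors and 1.40 times in normal brain, where Tnc and 8030451A03Rik had 5 and 7 reads. With the reads of both added up as 1 entry, the log2 fold changes were 6.51, 8.59 and −2.08 (adjusted p = 4.01e-08, 1.81e-09 and 1.53e-05).

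Tnr (ENSMUSG00000015829, chromosome 1, 159523769 to 159931729) encodes tenascin-R. It had 49, 31, 40, 37 and 56 reads in PDGFB tumors, 2, 22, 20, 5 and 10 in RAS tumors and 20, 12 and 19 in normal brains. All PDGFB tumors stood above all other libraries, and the RAS tumors spread from below the normal brains to above them. PDGFB tumors were 3.25-fold higher than RAS tumors (log2 fold change 1.70 ± 0.40 SE, adjusted p = 0.00369). Against normal brain the log2 fold change was 1.0 ± 0.46 SE in PDGFB tumors (adjusted p = 0.0833) and −0.71 ± 0.49 SE in RAS tumors (adjusted p = 0.227). The PDGFB value was past the threshold under library totals (adjusted p = 0.0371), with no low-count filter (0.0207), with the 2 groups fitted alone (0.00148) and without any single RAS tumor (0.0261 to 0.0491), and ranged from 0.00148 to 0.195 over the alternatives. Gm38039, whose 443 exonic bases all lie opposite the last exon of Tnr, had 512, 243, 530, 443 and 563 reads in PDGFB tumors, 54, 222, 327, 34 and 68 in RAS tumors and 152, 104 and 171 in normal brains. RAS tumors 2 and 3 were the highest RAS tumors under both names. Its log2 fold change between tumors was 1.55 ± 0.46 SE (adjusted p = 0.0160), and in PDGFB tumors against normal brain 1.37 ± 0.55 SE (adjusted p = 0.0503).

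**Figure D4:**
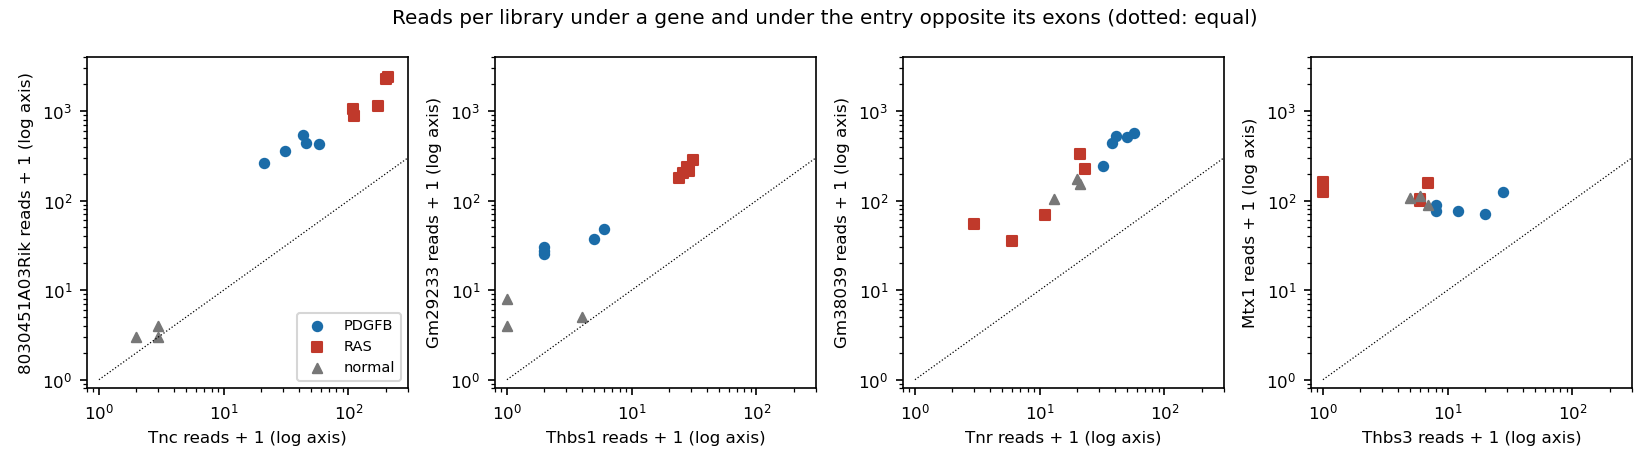
Reads per library under Tnc, Thbs1, Tnr and Thbs3 (horizontal) against reads under the entry opposite their exons (vertical), each plus 1, on log axes; 13 libraries a panel, coloured by group, with a dotted line of equal counts. The first 3 pairs rise together over the groups and lie above the line apart from 1 normal brain on it under Tnc, while Mtx1 stays between 70 and 162 reads across the range of Thbs3.

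Sparc and periostin were also high in RAS tumors. Sparc (ENSMUSG00000018593, chromosome 11, 55394500 to 55423183, no gene opposite), a collagen-binding protein that loosens cell attachment, had 53, 77, 49, 42 and 35 reads in PDGFB tumors, 365, 278, 352, 569 and 248 in RAS tumors and 48, 30 and 42 in normal brains. PDGFB tumors and normal brain overlapped, and all RAS tumors stood above both. RAS tumors averaged 588 ± 199 CPM (SD, n = 5) against 69.3 ± 12.5 CPM in normal brain (SD, n = 3), 7.94-fold higher (adjusted p = 1.22e-06, log2 fold change 2.99 ± 0.32 SE). PDGFB tumors were 7.80-fold lower than RAS tumors (−2.96 ± 0.26 SE, adjusted p = 6.24e-07) and had a log2 fold change of 0.03 against normal brain, with an interval of −0.56 to 0.61 (adjusted p = 0.950).

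Postn (ENSMUSG00000027750, chromosome 3, 54361109 to 54391037, no gene opposite), the integrin-binding fasciclin protein of collagen-rich stroma, had 7, 2, 0, 4 and 3 reads in PDGFB tumors, 22, 4, 15, 7 and 11 in RAS tumors and none in the 3 normal brains. The tumor groups overlapped, and 1 PDGFB tumor had no read. RAS tumors were at least 11-fold higher than normal brain (adjusted p = 8.34e-04) and PDGFB tumors at least 2.99-fold higher (adjusted p = 0.0373), both bounds being set by 3 reads over the normal group. The PDGFB call ended in limma-voom (adjusted p = 0.137), when PDGFB tumor 1 or 5 was left out, and when any normal brain was (0.0516 to 0.0818). Between tumors the log2 fold change was −1.98 ± 0.60 SE, PDGFB over RAS (adjusted p = 0.0195). For want of reads, Postn had no test in any comparison without RAS tumor 1, 3 or 5. It also had none in the 10 tumors alone, or in PDGFB tumors and normal brain fitted alone.

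Sparcl1 was the member that was lower in both tumor groups. Sparcl1 (ENSMUSG00000029309, chromosome 5, 104079111 to 104113733), the astrocyte-secreted synapse organizer hevin, had 72, 133, 63, 149 and 67 reads in PDGFB tumors, 39, 79, 32, 51 and 67 in RAS tumors and 289, 334 and 300 in normal brains. Every tumor stood below every normal brain, and the tumor groups overlapped. PDGFB tumors were 4.04-fold lower than normal brain (adjusted p = 5.63e-05, log2 fold change −2.01 ± 0.30 SE) and RAS tumors 6.63-fold lower (−2.73 ± 0.31 SE, adjusted p = 2.19e-06). Between tumors the log2 fold change was 0.72 ± 0.28 SE (adjusted p = 0.0587, 0.0110 to 0.181 over the alternatives). It passed under library totals, without the low-count filter, with a looser one, and without PDGFB tumor 1, 3 or 5 or RAS tumor 2 or 5.

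Per kb of exon the order of levels differed between the groups. In PDGFB tumors Sparcl1 led the protein-coding members with 53.9 CPM per kb, followed by Sparc with 22.0 and Tnc with 8.13. In RAS tumors Sparc led with 155 CPM per kb, followed by Tnc with 33.1, Sparcl1 with 29.5 and Thbs2 with 22.3. In normal brain Sparcl1 had 184 CPM per kb, Sparc 18.3 and Tnr 2.28. The entry 8030451A03Rik stood at 161 CPM per kb in PDGFB tumors and 610 CPM per kb in RAS tumors, with 0.995 CPM per kb in normal brain, above every protein-coding member in both tumor groups, so the place of Tnc in these orders depends on which of the 2 entries those reads belong to. The places of Tnr and Thbs1 likewise depend on whether the reads under the entries opposite them are theirs. Gm38039 stood at 1680, 527 and 555 CPM per kb in PDGFB tumors, RAS tumors and normal brain, and Gm29233 at 188, 1290 and 28.8. The spread between RAS tumors in Thbs2 was wide enough that its place beside Tnc and Sparcl1 is not fixed by these libraries.

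Markers of other cell types moved with several of these values, and their part in them was not tested. Oligodendrocyte precursor markers summed to 782 to 1100 CPM in PDGFB tumors, 103 to 372 in RAS tumors and 128 to 147 in normal brains, and all 8 of 8 were called higher in PDGFB than in RAS tumors, as Tnr was. RAS tumors 2 and 3, with the highest Tnr and Gm38039 of their group, also had its highest precursor sums, 231 and 372 CPM. PDGFB tumor 5, with the highest Tnr and Gm38039 of its group, had its lowest precursor sum, 782 CPM. Astrocyte markers summed to 235 to 530 CPM in PDGFB tumors, 165 to 753 in RAS tumors and 673 to 904 in normal brains, and of 8 tested 4 were lower in PDGFB tumors and 5 in RAS tumors than in normal brain, as Sparcl1 was. The whole neuron list summed to 232 to 648 CPM in PDGFB tumors, 3990 to 8520 in RAS tumors and 5660 to 6040 in normal brains. Most of it in PDGFB tumors, RAS tumors and normal brain was Nefm, which lies opposite Nefl. The other 9 markers summed to 78.4 to 302 CPM in PDGFB tumors, 221 to 522 in RAS tumors and 1680 to 1750 in normal brains. None of the 9 neuron, 9 astrocyte or 8 precursor markers was at 0 in a whole group.

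Macrophage and microglia markers summed to 312 to 425 CPM in PDGFB tumors, 611 to 936 in RAS tumors and 354 to 400 in normal brains, where Ptprc was at 0, and all 6 tested were lower in PDGFB than in RAS tumors. Fibroblast and meninges markers summed to 188 to 304 CPM in PDGFB tumors, 154 to 454 in RAS tumors and 24.6 to 29.0 in normal brains; of 4 tested, 1 was called higher and 3 lower in PDGFB than in RAS tumors. Without Pdgfra, which precursors share, they summed to 14.1 to 62.8 CPM in PDGFB tumors, 104 to 418 in RAS tumors and 11.3 to 18.7 in normal brains. Slc6a13 was at 0 in both tumor groups and Lum in normal brain. Mean levels of Thbs1, Thbs2, Postn and Sparc were likewise highest in RAS tumors. RAS tumor 5, with the highest fibroblast sum without Pdgfra at 418 CPM, had the fewest Thbs2 reads and the fewest Sparc reads of its group. Platelet markers, relevant because platelets carry thrombospondin 1, summed to 12.5 to 34.5 CPM in PDGFB tumors, 9.33 to 25.4 in RAS tumors and 10.2 to 19.8 in normal brains. Gp1bb and Ppbp were at 0 in all 3 groups, Gp9 also in PDGFB tumors and normal brain, and Pf4 in normal brain. The sum of normal brain is thus Itga2b alone. Only 1 of the 5 markers was tested, so platelet content cannot be judged from this list. Endothelial markers, of which none of 8 passed the filter, summed to 8.26 to 44.0 CPM in PDGFB tumors, 34.0 to 78.6 in RAS tumors and 23.1 to 25.5 in normal brains, with Cldn5 at 0 in normal brain. Pericyte and smooth muscle markers summed to 64.1 to 94.2 CPM in PDGFB tumors, 60.7 to 194 in RAS tumors and 32.1 to 47.9 in normal brains, with Myh11 at 0 in both tumor groups and Acta2 in normal brain. Mature oligodendrocyte markers summed to 137 to 223 CPM in PDGFB tumors, 76.9 to 335 in RAS tumors and 1010 to 1610 in normal brains, with Opalin at 0 in RAS tumors.

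The letters before the starts of 4 members that were high in RAS tumors are shown so that their sequences can be set side by side; the 4 differed in PDGFB tumors against normal brain, where Tnc and Postn were called and Thbs2 and Sparc were not. The windows hold the 250 bases before a start in RefSeq (GRCm38.p6), whose table matched 8 of the 10 members. They were searched on both strands for the AP-1 motif TGANTCA, for the binding motif of TEAD factors, GGAATG, for a TATA box written TATAAA, and for the GC box that is spelled GGGCGG, and matches are in capitals; no 2 matches overlap in the windows printed. Tnc and Postn have a further start each in RefSeq, not printed. The further window of Tnc overlaps the printed one and holds the same matches, while that of Postn holds no match to any of these motifs.
Thbs2, chr17:14694263-14694512, minus strand: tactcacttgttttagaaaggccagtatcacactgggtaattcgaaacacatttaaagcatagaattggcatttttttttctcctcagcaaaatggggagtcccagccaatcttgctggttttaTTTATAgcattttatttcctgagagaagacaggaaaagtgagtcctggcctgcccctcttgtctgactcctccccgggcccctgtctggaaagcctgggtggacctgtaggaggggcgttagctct
Tnc, chr4:64047016-64047265, minus strand: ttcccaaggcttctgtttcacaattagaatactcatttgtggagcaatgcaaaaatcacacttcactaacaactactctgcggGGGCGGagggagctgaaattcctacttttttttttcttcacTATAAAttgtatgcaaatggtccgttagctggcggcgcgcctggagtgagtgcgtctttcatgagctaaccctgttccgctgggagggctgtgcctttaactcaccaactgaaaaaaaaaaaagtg
Postn, chr3:54360857-54361106, plus strand: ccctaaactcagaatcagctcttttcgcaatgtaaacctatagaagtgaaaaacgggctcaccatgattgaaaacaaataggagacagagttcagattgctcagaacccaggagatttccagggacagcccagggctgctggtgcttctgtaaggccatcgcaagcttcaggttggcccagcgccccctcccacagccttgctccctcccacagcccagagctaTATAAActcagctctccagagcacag
Sparc, chr11:55420081-55420330, minus strand: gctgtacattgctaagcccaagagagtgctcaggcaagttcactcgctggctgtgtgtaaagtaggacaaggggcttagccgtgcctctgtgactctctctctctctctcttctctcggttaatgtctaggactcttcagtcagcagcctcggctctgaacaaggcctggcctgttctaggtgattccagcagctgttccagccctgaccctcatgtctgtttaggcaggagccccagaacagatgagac
TATAAA was found once each in the printed windows of Thbs2, Tnc and Postn, and in 12.3% of 32536 such windows in the genome. GGGCGG was found in that of Tnc and in 33.0% of all. None of the 4 held TGANTCA or GGAATG, which 6.73% and 12.6% of all windows held. A match is a description of letters and shows no binding.

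Receptors and matrix partners of these proteins were followed in 5 lists. Of all tested genes, 20.2% were called higher and 25.1% lower in PDGFB tumors against normal brain, and 26.9% and 29.3% in RAS tumors. Between tumors 14.6% were called higher and 17.4% lower in PDGFB tumors. A list count near these shares says nothing about its list. Beside the members, the family holds 9 further genes, of which 4 were tested. The testican genes Spock1, Spock2 and Spock3, brain proteoglycans with a SPARC domain, were lower in both tumor groups than in normal brain. Spock2 averaged 40.5 ± 10.3 CPM in PDGFB tumors, 16.3 ± 16.4 CPM in RAS tumors and 207 ± 20 CPM in normal brain (SD, n = 5, 5 and 3), with log2 fold changes of −2.58 and −3.75 (adjusted p = 3.81e-04 and 1.56e-05). Fstl1, a secreted relative of Sparc, was 7.08-fold higher in RAS tumors than in normal brain (adjusted p = 2.44e-04) and 2.77-fold lower in PDGFB than in RAS tumors (adjusted p = 0.00523). The median log2 fold changes of the 4 were −2.68, −2.87 and −0.09.

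Of 8 CCN family and other matricellular genes 4 were tested, with 2 higher in PDGFB tumors and 3 in RAS tumors against normal brain and 2 lower in PDGFB than in RAS tumors (medians 2.68, 6.13 and −2.21). Spp1, the macrophage and glioma glycoprotein osteopontin, averaged 24.5 ± 16.1 CPM in PDGFB tumors, 453 ± 199 CPM in RAS tumors and 2.20 ± 3.82 CPM in normal brain (SD, n = 5, 5 and 3). It was 20.5-fold lower in PDGFB than in RAS tumors (adjusted p = 2.40e-06). Tgfbi, a fasciclin protein related to periostin, was 12.2-fold lower in PDGFB than in RAS tumors (adjusted p = 2.60e-05). Ccn1 had 31 reads over PDGFB tumors, 50 over RAS tumors and none in normal brain (adjusted p = 0.00239 and 2.90e-04), and was not called between tumors (adjusted p = 0.189).

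Thrombospondin receptors had 9 of 11 tested. Against normal brain 3 were higher and 1 lower in PDGFB tumors, and 6 higher and 1 lower in RAS tumors. Between tumors 5 were lower and none higher in PDGFB tumors (medians 0.61, 1.70 and −0.65 in these comparisons). The calls in PDGFB tumors against normal brain were near the share of all tested genes called there, 45.3%. The integrin chain gene Itgb1 averaged 255 ± 33.2 CPM in PDGFB tumors, 831 ± 363 CPM in RAS tumors and 36.2 ± 16.5 CPM in normal brain (SD, n = 5, 5 and 3; adjusted p = 5.47e-05 and 2.99e-07 against normal brain). Itgb3, which pairs with Itgav, had 4 reads over PDGFB tumors, 73 over RAS tumors and none in normal brain, and was 17.4-fold lower in PDGFB than in RAS tumors (adjusted p = 1.20e-04). Itga6 was 11.4-fold lower there (adjusted p = 1.19e-05). Cacna2d1, the neuronal receptor through which thrombospondins induce synapses, was lower than in normal brain in PDGFB tumors (log2 fold change −2.42, adjusted p = 0.00480) and in RAS tumors (−2.77, adjusted p = 0.00176).

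Tenascin receptors and matrix partners had 8 of 13 tested, and here the tumors differed in both directions. Against normal brain 6 were higher and none lower in PDGFB tumors, 3 higher and 3 lower in RAS tumors, and between tumors 5 were higher and 2 lower in PDGFB tumors (medians 1.83, −0.22 and 1.93). Cntn1, the axonal receptor of tenascin-R, averaged 160 ± 25 CPM in PDGFB tumors against 23.2 ± 20.5 CPM in RAS tumors (SD, n = 5 each), 6.31-fold higher (adjusted p = 7.63e-05). Ptprz1, a phosphatase of precursors and glioma that binds tenascins, was 5.97-fold higher (adjusted p = 3.40e-04) and the brain lectican Bcan 5.59-fold higher (adjusted p = 0.00161). Fn1, fibronectin, which Tnc binds, was lower in PDGFB than in RAS tumors (log2 fold change −2.48, adjusted p = 1.47e-04) and lies opposite Apol7d. Vcan was higher than in normal brain in PDGFB tumors (log2 fold change 2.47, adjusted p = 0.00122) and RAS tumors (2.73, adjusted p = 3.29e-04). Ptprz1 also stands in the precursor marker list.

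Partners of SPARC, hevin and periostin had 9 of 10 tested. Against normal brain 4 were higher and 1 lower in PDGFB tumors, 8 higher and 1 lower in RAS tumors, and between tumors 7 were lower and none higher in PDGFB tumors (medians 0.96, 3.71 and −1.82). The fibrillar collagen genes Col1a1, Col1a2 and Col3a1, also fibroblast markers, were 10.9-, 15.1- and 6.74-fold lower in PDGFB than in RAS tumors (adjusted p = 0.00346, 8.77e-05 and 0.00101). Col4a1, of basement membranes, was 16.2-fold higher in PDGFB tumors and 14.9-fold higher in RAS tumors than in normal brain (adjusted p = 1.94e-06 and 1.20e-06), was not called between tumors (adjusted p = 0.752), and lies opposite Col4a2. Bmp1, a protease that matures collagens, had 74 reads over PDGFB tumors, 222 over RAS tumors and 3 over normal brains, and both tumor groups were called higher (adjusted p = 4.82e-04 and 2.70e-06). Stab1, a scavenger receptor for SPARC opposite Nt5dc2, was 9.23-fold higher in PDGFB tumors and 32.7-fold higher in RAS tumors than in normal brain (adjusted p = 1.10e-05 and 1.09e-07). The lists were drawn up with earlier results known, and their counts are descriptions to be set beside the shares of all tested genes given before the first list.

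**Figure D5:**
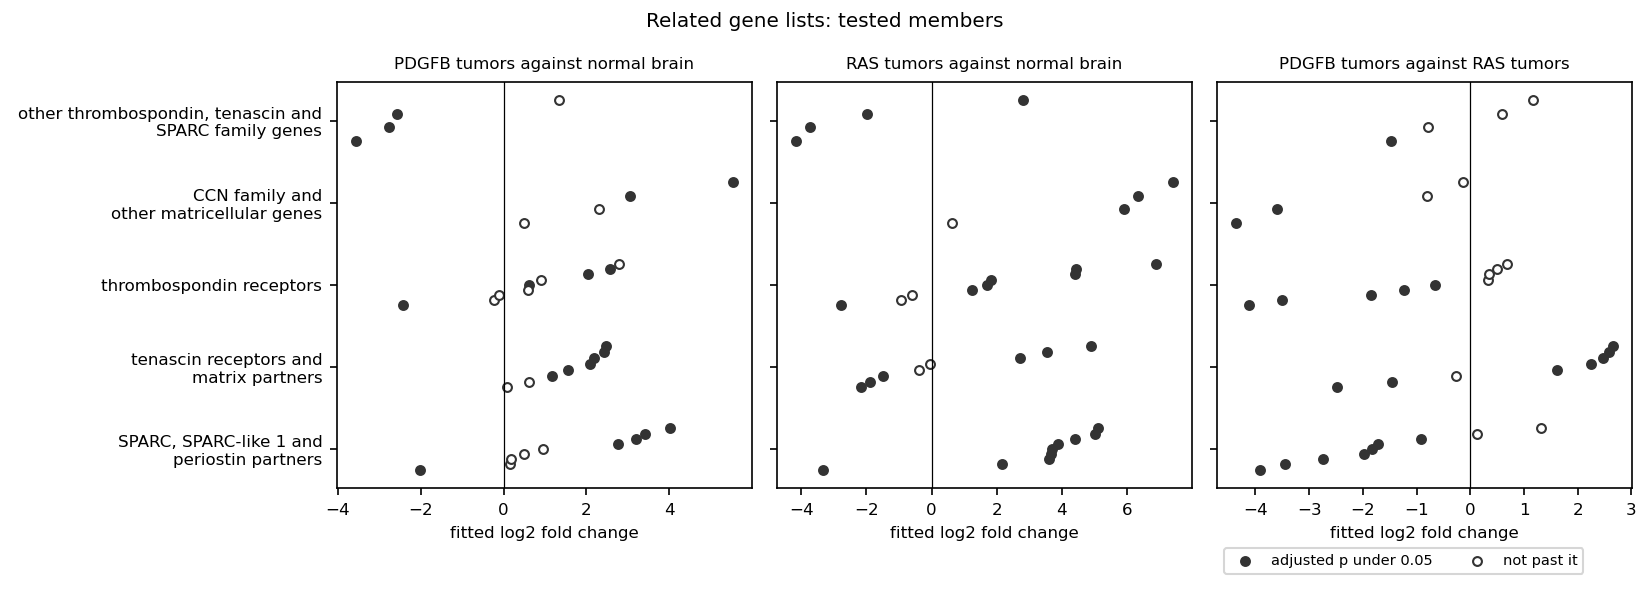
Fitted log2 fold changes of the tested genes of the 5 related lists, 1 panel per comparison and 1 point per gene; filled points had an adjusted p under 0.05 and open points did not. Among tenascin partners 5 genes lie right of 0 and 2 left of it as filled points between tumors. Thrombospondin receptors and SPARC partners have 5 and 7 filled points left of 0 there and none right of it. Of all tested genes, 14.6% were called higher and 17.4% lower between tumors.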

How the data were processed

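Polyadenylated RNA of 13 mouse tissue samples was sequenced after Trizol extraction and TruSeq RNA library preparation, per the labels. Reads were trimmed with fastp 0.22.0 and aligned with STAR 2.7.9a to GRCm38, per the submitters' processing notes; annotation and strand setting of the count are not given in the sources used here. The authors deposited unnormalized counts of reads per Ensembl gene. The 4 aligner summary lines (84.5% to 87.3% of reads in no gene, 5.40% to 7.35% multimapping, 2.05% to 4.89% unmapped) were left out of library sizes and tests. Symbols, positions and exons came from GENCODE M21 (GRCm38), which held 52135 of 55416 genes. The members and lists were chosen with earlier results of these data known.

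The main model was edgeR's quasi-likelihood test (version 4.0.16, R 4.3.3) with group as its term, fitted to the 13 libraries together after filterByExpr (minimum count 10, minimum total 15) and TMM scaling. Its tests were two-sided, with Benjamini-Hochberg adjustment over 7722 genes. An SE is the log2 fold change divided by the square root of the test's F, and an interval is the normal 95% interval from that SE. The fit was tested on simulated data. CPM divide by all reads counted in genes. Where a group had no read, the fold is a bound computed from 3 reads in all its libraries; for 1 to 3 reads the ratio of counts has an exact 95% interval. The intervals of count ratios and the bounds cover counting error only, while the interval from the SE also holds the spread between libraries. Replicates all differed by more than counting noise (lowest chi-square per degree of freedom 1.90, over genes with 20 reads in the pair), so each library was kept as its own. Named were all members, the genes opposite them, up to 3 called genes per related list and comparison, the 3 nearest profiles of each member and, added after values were seen, further comparisons of genes that the rule named in another one. The alternatives changed the scaling (median-of-ratios factors, library totals), the filter (none, or 1 CPM in 5 libraries), the tool (limma-voom 3.58.1, DESeq2 1.42.0), the threshold (0.01, or 2-fold besides) or the samples (each library left out, only the groups compared), added a replicate block between tumors, or summed Tnc with 8030451A03Rik.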

Additional observations from a re-analysis of the deposited data

Results flagged for a closer look

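In the direct comparison of bulk PDGFB tumors with bulk RAS tumors in edgeR, 8 of the 9 tested members were called. Over all tested genes 32.1% were called there in either direction, and the members were chosen with these fold changes known. The log2 values, PDGFB minus RAS tumors, were −3.54 for Thbs1, −6.54 for Thbs2, −2.17 for Tnc, −2.07 for 8030451A03Rik, −1.98 for Postn and −2.96 for Sparc. They were 1.97 for Thbs3 and 1.70 for Tnr, which were higher than normal brain in mean CPM in PDGFB tumors and lower in RAS tumors without passing the test against normal brain in either group. In 20 sets of 5 tumors examined, no library of a member lay far outside the others, where chance flags about 1 set in 20.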

How the results depend on the processing

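The total numbers of members called stayed within 1.5 times the reported 4, 7 and 8 under every alternative run, at 3 to 5 for PDGFB tumors against normal brain, 6 to 7 for RAS tumors against normal brain and 6 to 9 between tumors. The 2 called higher between tumors became 1 in the tumors alone, with the replicate block, at an adjusted p under 0.01 and without PDGFB tumor 2, and ranged from 1 to 3. Of 601 member values over 24 alternatives, 571 kept direction and side of the threshold, 9 lost the call, 18 gained it and 3 changed sign. All 3 were Sparc in PDGFB tumors against normal brain, a log2 fold change of 0.03 that became −0.01 in limma-voom and −0.16 to 0.26 when single libraries were left out (0 without normal brain 2); the cause was not tested. Members without a test under an alternative are not among the 601 values. Postn and Thbs3 each had a value between tumors in 19 of 24 alternatives. Against normal brain Postn had a value in 19 of 23 for PDGFB tumors and in 20 of 23 for RAS tumors. Calls of 20, 29 and 22 in the related lists ranged over 16 to 22, 26 to 32 and 16 to 28. With the replicate block, fitted to the 10 tumors, 6 members were called between tumors in place of 8 and 16 related genes in place of 22; Thbs3 and Postn did not pass the filter there. Over all genes the block gave 1705 calls, against 1829 in the tumors alone and 2476 over 13 libraries. Same-numbered tumors did not deviate together (correlations −0.13 to 0.14; 2 of 10 tumors correlated best with their own number), so the numbers were not taken as pairs. Thbs4 was fitted only without the filter or with a looser one (log2 fold changes −0.75, 0.10 and −0.85, adjusted p 0.677 to 1). Depth limits Thbs1, Thbs2, Thbs3, Thbs4, Tnr and Postn, with 30 reads or fewer in most libraries.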

Other observations

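For each tested member the 3 genes with the most similar profile over the 13 libraries were found among 5775 or 5776 genes with a mean of at least 10 CPM, by the root mean square difference of log2(CPM + 1) after centring each gene. For this difference the CPM were also scaled with the TMM factors. The measure is a description of likeness over libraries that share their groups. Thbs2 was most like Fbln2, a basement membrane fibulin (0.83), the growth factor gene Ereg opposite Gm19610 (0.96) and Ccdc85b, which lies opposite Fosl1 (1.0), against a spread of 3.16 for Thbs2 itself. Fbln2 averaged 1.63 CPM in PDGFB tumors, 90.0 CPM in RAS tumors and 0 CPM in normal brain. For Thbs1 they were Igf2r (0.75), Arg1, an enzyme of alternatively activated macrophages (0.77), and Ehd2 (0.78). Sparc was nearest to Nt5c3b opposite Fkbp10 (0.44), Tmem189 opposite Cebpb (0.48) and Prkg2 (0.48).

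The nearest profiles to Tnc, whose spread was 2.31, were Ctu2 opposite Piezo1 (0.50), BE692007 opposite Ms4a6c (0.53) and the tubulin gene Tuba1c (0.56). Those nearest to 8030451A03Rik, with a spread of 3.42, were the progenitor filament gene Nes (0.63), Hmga2 opposite 1700006J14Rik (1.02) and Zfp961 opposite Cyp4f18 (1.11). Nes averaged 110.0 CPM in PDGFB tumors, 203 CPM in RAS tumors and 0 CPM in normal brain. Postn was most like the adhesion gene Zyx opposite Epha1 (0.74), Rhoc (0.78) and Rbms1 (0.79). Sparcl1, with a spread of 1.15, was nearest to Ccdc17 opposite C530005A16Rik (0.30), the synaptic calsyntenin gene Clstn1 (0.35) and Pter (0.36). Thbs3 was nearest to the neural transcription factor gene Pou3f2 (0.62), the neurotrophin receptor gene Ntrk3 (0.66) and the potassium channel gene Kcnd3 opposite Kcnd3os (0.69), and Tnr to Ccnb2-ps (0.49), Asrgl1 (0.51) and Aifm2 opposite H2afy2 (0.54).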
